A study of Mus musculus with 46 samples.

Results

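The respiratory chain and the ATP synthase are the machinery of oxidative phosphorylation in the inner mitochondrial membrane. Complex I (NADH dehydrogenase) and complex II (succinate dehydrogenase) pass electrons to coenzyme Q, complex III hands them on to cytochrome c, complex IV (cytochrome c oxidase) reduces oxygen, and complex V (the ATP synthase) uses the proton gradient to make ATP. Most subunits are encoded in the nucleus, and 13 are encoded in the mitochondrial DNA. Genes were taken by symbol: every protein-coding gene beginning with Nduf followed by a, b, c, s or v, the 4 Sdh subunits, Uqcr genes, Cyc1, Cox4 to Cox8 genes and Atp5 genes. This gave 91 of the 14888 genes listed in either of 2 deposited tables, 90 in each and 89 in both (Cox6b2 was listed for the lines only and Cox7b2 for the addback experiment only). By textbook role they fall into 37 subunits of complex I (7 catalytic core and 30 accessory), 8 complex I assembly factors whose symbols begin with Ndufaf, 4 subunits of complex II, 9 of complex III, 16 of complex IV and 17 of complex V. Ndufa4, first assigned to complex I, was counted with complex IV, and so was Cox7a2l, which joins complexes III and IV in supercomplexes.

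RNA-seq was done on lines cultured from mouse thyroid tumours. Conditional alleles of Rb and p53 were recombined in those mice by an Ascl-driven, tamoxifen-inducible Cre meant for neuroendocrine cells, and in some mice a conditional Max allele was recombined with them. MAX dimerises with MYC proteins, and also with repressors such as MNT, to bind E-box DNA. The libraries used here were 3 of Rb/p53/Max mutant cells transduced to express Max again (Max addback) and 3 of Rb/p53/Max mutant cells transduced with an empty vector, then 4 lines labelled Rb/p53/Max mutant (RPM lines) and 4 lines labelled Rb/p53 mutant (RP lines). By the library names the addback and empty vector cells come from 1 line, the one sequenced as RPM replicate 2, so those 3 and 3 libraries sample cultures of 1 line and p-values measure the spread between them. The sources used here do not give the ages of the mice or the kind of vector. The 32 tumour libraries were not analysed here.

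Library totals over listed genes were 7426964 to 7912573 reads with Max addback, 6738614 to 7238672 with empty vector, 7829982 to 8408913 in RPM lines and 8242657 to 8498396 in RP lines. A count of 3 reads was worth 0.353 to 0.458 CPM. Max itself stood at 251, 250 and 220 CPM with addback, against 86.3, 83.1 and 96.0 CPM with empty vector. In the lines Max was at 80.9, 103, 68.9 and 100 CPM in RPM cells and 65.2, 44.7, 50.8 and 57.5 CPM in RP cells. Every line labelled Max mutant thus had more Max transcript than every RP line, so these levels do not show the loss of Max in the lines labelled RPM, and whether the counted reads cover the deleted part was not tested. The 4 Y-linked genes Ddx3y, Eif2s3y, Kdm5d and Uty were at 0 to 0.257 CPM in the addback libraries, against 60.9 to 177 CPM in the empty vector libraries. The cultures thus differed in Y-linked transcripts as well as in Max, and the parts of the 2 differences in the results below cannot be told apart. RPM replicate 3 and RP replicate 2 also had these genes at 0 to 0.120 CPM. All 11 fixed C cell and neuroendocrine markers were listed in both tables, with summed levels of 10597 to 12094 CPM with addback, against 5700 to 6057 CPM with empty vector, and of 5754 to 24427 CPM in RPM lines, against 6226 to 9275 CPM in RP lines. Of the follicular cell markers, Tg, Tshr and Foxe1 were listed in neither table.

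Addback replicate 3 stood apart from its group for the respiratory chain genes. It was the highest of the 3 addback libraries for 81 of 90 genes, while among all 14056 listed genes it was the highest for 6084. The median log2 difference of the 90 genes from the empty vector mean was -0.34 in addback replicate 1, -0.21 in replicate 2 and 0.08 in replicate 3. For all listed genes the 3 medians lay between 0.003 and 0.005. Counts of called genes, medians and list counts with addback are therefore also given without that library; single genes are given with all 6 libraries unless stated.

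**Figure D1:**
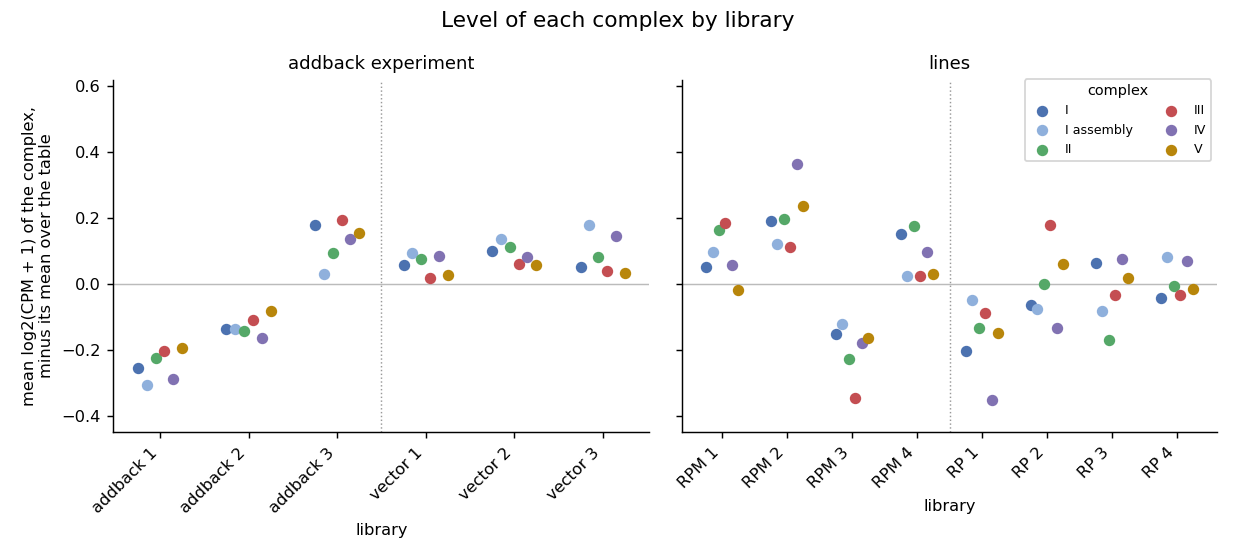
Mean log2(CPM + 1) of the genes of each complex in each library, minus the mean of the same complex over all libraries of that table (vertical axis); the tables were normalised separately and are drawn apart. With addback, replicates 1 and 2 lie below all 3 empty vector libraries for every complex, while replicate 3 lies within or above them for all but the complex I assembly factors; in the lines, RPM replicate 3 lies below 0 for every complex.

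Per gene length, the transcripts of Cox8a, a small subunit of cytochrome c oxidase, and of Atp5b, the catalytic beta subunit of the ATP synthase, had the highest mean of their complexes over all libraries of each table. Cox8a averaged 378 RPKM with addback and 597 RPKM with empty vector, and 396 RPKM in RPM lines and 366 RPKM in RP lines; with addback alone Cox6a1 was higher, at 396 RPKM. Atp5b averaged 358 RPKM with addback and 424 RPKM with empty vector, and 379 RPKM in RPM lines and 395 RPKM in RP lines. By the same mean the other complexes were led by Ndufb11, an X-linked accessory subunit of complex I, Sdhd, a membrane anchor of complex II, and Uqcr10, a small subunit of complex III. Within single groups that order was not fixed: with addback Sdha averaged 107 RPKM and Sdhd 97.2 RPKM, and in RP lines Ndufc2 averaged 159.6 RPKM and Ndufb11 146 RPKM. At the low end were Atp5g2, Atp5l and Ndufb4, with means of 1.36, 1.83 and 3.16 RPKM over the 8 line libraries. Atp5l has 9 annotated close copies, so its reads may be split among them. In all, 11 members have such a copy (at least 95% identity over at least 50% of a transcript), and their values are uncertain: Atp5c1, Atp5g2, Atp5h, Atp5k, Atp5l, Atp5o, Cox7c, Ndufb11, Ndufs3, Ndufs6 and Uqcrb. The subunit genes together took 1.07, 1.13 and 1.42% of the reads with addback, against 1.29, 1.30 and 1.28% with empty vector.

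The promoters were read for the letters that MAX and the factors known for respiratory genes recognise, because MAX dimers bind the E-box CACGTG. NRF1 and the ETS-family factor GABP (also called NRF2) are textbook activators of respiratory chain genes. Windows of 300 bases, 250 before to 50 after the annotated start, were taken from RefSeq on GRCm38.p6 and found for 76 of the 91 genes; those without a window included Atp5a1, Atp5mpl, Cox4i1, Cox6a2, Cox6c, Cyc1, Ndufa2, Ndufaf6, Ndufb9, Ndufs1, Sdhc, Uqcrb, Uqcrc2 and Uqcrq. The E-box (its own reverse complement) was found in 6 of the 76, which is 7.89%, against 11.6% of 10671 listed protein-coding genes. The NRF1 letters GCGCATGCG were found in 10, or 13.2%, against 4.03%, the ETS letters CCGGAAG in 19, or 25%, against 19.1%, and the YY1 letters AAGATGGC in 11, or 14.5%, against 5.03%, each on both strands. At least 1 of these last 3 words was found in 34 of the 76, or 44.7%, against 25.9% of listed protein-coding genes. The 6 stretches that hold an E-box are shown because they are where these promoters carry the letters of MAX binding; each is written 5′ to 3′ along the gene, with the E-box in capitals.
Atp5g1, chr11:96075650-96075695, minus strand, 44 bases before the start: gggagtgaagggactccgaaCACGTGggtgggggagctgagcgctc
Ndufa7, chr17:33824480-33824525, plus strand, 72 bases before the start: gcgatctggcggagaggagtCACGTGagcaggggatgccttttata
Atp5l, chr9:44920864-44920909, minus strand, 147 bases before the start: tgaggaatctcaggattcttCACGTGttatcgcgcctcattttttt
Ndufv1, chr19:4012899-4012944, minus strand, 169 bases before the start: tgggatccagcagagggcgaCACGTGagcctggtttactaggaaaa
Atp5g3, chr2:73911539-73911576, minus strand, 238 bases before the start: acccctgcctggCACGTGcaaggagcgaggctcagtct
Atp5f1, chr3:105959487-105959513, minus strand, 249 bases before the start: aCACGTGgtgtacctctgcgcaaccgc

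None of these 6 genes was called in either comparison described next, with log2 changes of -0.27 to 0.07 with addback and 0.03 to 0.61 in the lines. For comparison, 3 genes that were lower with addback are shown with the ETS letters in Ndufb7 and Uqcrh and the NRF1 letters in Ndufaf4 in capitals. These 3 were picked among called genes. Of all genes with a window in the addback table, 0 of 6 with the E-box were lower and 15 of 69 without it, 5 of 19 with the ETS letters and 10 of 56 without, and 1 of 10 with the NRF1 letters and 14 of 65 without. A match is a description of these letters only.
Ndufb7, chr8:83566718-83566757, plus strand, 20 bases before the start: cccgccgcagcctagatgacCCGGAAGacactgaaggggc
Uqcrh, chr4:116075071-116075100, minus strand, 10 bases before the start: actacgaggagtatgccgcaCTTCCGGcca
Ndufaf4, chr4:24897950-24897998, plus strand, 113 bases before the start: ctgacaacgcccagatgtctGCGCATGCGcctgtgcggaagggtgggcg

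Adding Max back to RPM cells was used to ask which transcripts depend on it. Of the 90 respiratory chain genes, 21 fell and 5 rose with Max addback relative to empty vector by limma-trend on log2(CPM + 1), with Benjamini-Hochberg adjusted p under 0.05 over all 14056 genes. In bulk RNA, fewer cells that express a gene and less RNA per cell cannot be told apart. The called genes are 28.9% of the 90, while 53.2% of all listed genes were called, 27.7% higher and 25.5% lower. The median change of the 90 was -0.14 on the log2 scale, against -0.002 for all listed genes, and 66 lay below 0 and 24 above. The groups did not overlap in 31 of the 90, against 61.9% of all listed genes, so absence of overlap was common in this comparison. Their changes were spread over an interquartile range of 0.33, against 0.70 for all listed genes, and 4 of the 90 changed by more than 1, all of them in complex IV, against 15.6% of all listed genes. Without addback replicate 3, 54 fell and 5 rose, 65.6% of the 90 against 64.3% of all listed genes, and all 26 genes of the full comparison were still called. The median of the 90 was then -0.24. The log2 changes of the 21 lower genes were then lower by 0.02 to 0.20, and of the 26 called genes Atp5e was the one whose change moved by more than 1.5 times. Scaled by total reads rather than by TMM, 14 fell and 6 rose, 52.8% of all listed genes were called, and the median of all listed genes was shifted by 0.07. The authors' deposited table calls 5 of the 90 lower (Cox6a2, Cox6c, Cox7a2l, Cox8a and Ndufb7) and 2 higher (Cox7a1 and Cox7b2), beside 32.0% of all listed genes.

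**Figure D2:**
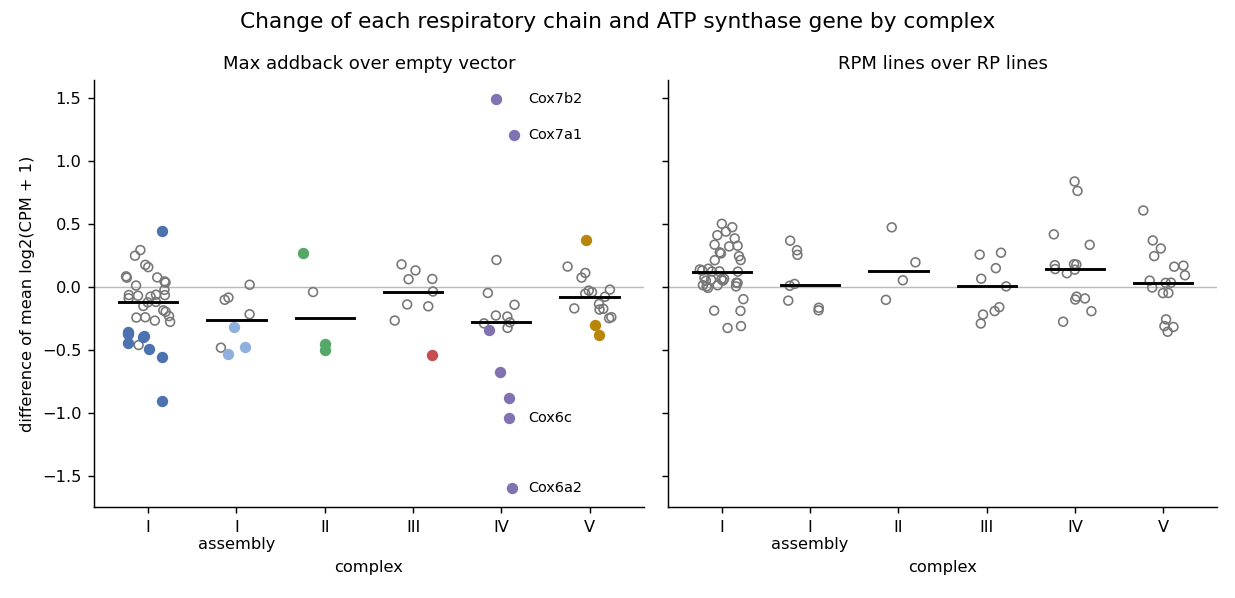
Difference of mean log2(CPM + 1) for each gene by complex, Max addback over empty vector on the left and RPM lines over RP lines on the right; filled points passed limma's adjusted p of 0.05, open points did not, and bars are medians. The 4 changes beyond 1 in either direction are the labelled complex IV genes with addback, and no point is filled for the lines.

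The complexes differed in how many of their genes were called with addback, which was not itself tested. Beside the counts below stand 53.2% of all listed genes called, 25.5% lower and 27.7% higher. The share of all listed genes called was 64.3% without addback replicate 3 and 52.8% when scaled by total reads. In complex IV, 5 of 15 genes fell and 2 rose, with a median of -0.28; without addback replicate 3 these were 12 and 2, with a median of -0.41. In complex I, 8 of 37 fell and 1 rose, with a median of -0.12 (22 and 1 without replicate 3, with a median of -0.23). Of its assembly factors 3 of 8 fell (5 without replicate 3). In complex II, 2 of 4 fell and 1 rose, with or without that library. In complex III 1 of 9 fell (5 without replicate 3), and in complex V 2 of 17 fell and 1 rose (8 and 1 without it), with medians of -0.04 and -0.08 (-0.15 and -0.16 without it). Scaled by total reads, 5 genes of complex I and 0 of complex V fell, and the medians of complexes III and V were 0.04 and 0.003. The 2 lower calls in complex V were also lost when any 1 library other than addback replicate 3 was left out. By summed RPKM, complex IV stood at 1662, 1769 and 2328 with addback, against 2480, 2516 and 2546 with empty vector, and the groups did not overlap. Complex I stood at 2000, 2216 and 2783 RPKM with addback, against 2522, 2636 and 2549 RPKM with empty vector, and addback replicate 3 was the highest of the 6.

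In complex IV the largest change was in Cox6a2, the isoform of subunit VIa best known from heart and skeletal muscle (chr7:128205435-128206387, minus strand, mm10). Cox6a2 had 33.6, 34.9 and 43.4 CPM with addback, against 118, 114 and 110 CPM with empty vector. Every addback library was below every empty vector library, and the mean was 0.327 times that of empty vector (log2 change -1.59, SE 0.10, limma adjusted p 9.58e-07). Its broadly expressed sister Cox6a1 had 236, 252 and 347 CPM with addback, against 317, 306 and 347 CPM with empty vector, and the groups overlapped (log2 change -0.23, limma adjusted p 0.17). Cox6c, another nuclear-encoded subunit (chr15:35925886-35938246, minus strand), had 138, 153 and 175 CPM with addback, against 295, 342 and 322 CPM with empty vector. It fell by 1.04 on the log2 scale (SE 0.10, limma adjusted p 1.54e-05), with no overlap. Exons of Cox6a2 and Cox6c overlap Itgad and Vps13b on the opposite strand. In all, 30 of the 91 genes have exons that overlap a gene on the opposite strand. No source used here says whether counting used the strand, so the genes of each such pair cannot be told apart.

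Cox8a had 211, 201 and 290 CPM with addback, against 377, 368 and 364 CPM with empty vector, and fell by 0.68 (SE 0.13, limma adjusted p 0.0013). Cox7a2l, the supercomplex factor, had 46.8, 46.7 and 71.1 CPM with addback, against 102, 102 and 96.3 CPM with empty vector, and fell by 0.88 (SE 0.15, limma adjusted p 0.00064). For both genes addback replicate 3 was the nearest to the empty vector libraries, and the groups did not overlap. Cox7b, an X-linked subunit, passed narrowly with a log2 change of -0.34 (limma adjusted p 0.049), and addback replicate 3, at 167 CPM, lay above empty vector replicate 1, at 157 CPM. The other X-linked members did not pass, with log2 changes of -0.24 for Ndufb11 and -0.19 for Ndufa1. Of the remaining subunits with paralogs, Cox7a2, Cox6b1 and Ndufa4 had limma adjusted p of 0.061, 0.054 and 0.065 at log2 changes of -0.29, -0.28 and -0.23. Cox4i1, the common isoform of subunit IV, had 251, 275 and 380 CPM with addback, against 260, 243 and 267 CPM with empty vector (log2 change 0.21, limma adjusted p 0.21). Without addback replicate 3, Cox6a1, Cox7a2, Cox6b1, Ndufa4, Ndufb11 and Ndufa1 were called lower, with log2 changes of -0.41 to -0.32, and Cox4i1 had a log2 change of 0.04.

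The complex IV genes that rose were isoforms at low levels. Cox7a1, the heart and muscle isoform of subunit VIIa, had 2.92, 2.62 and 2.70 CPM with addback, against 0.858, 0.426 and 0.611 CPM with empty vector (log2 change 1.21, SE 0.17, limma adjusted p 0.0002). Cox7b2, a paralog of Cox7b known from testis, had 1.78, 2.74 and 2.44 CPM with addback, which is 14, 22 and 19 reads, against 0, 0 and 0.611 CPM with empty vector, which is 0, 0 and 4 reads (log2 change 1.49, SE 0.23, limma adjusted p 0.00039). Neither gene's groups overlapped. As shares of the summed RPKM of their pairs, Cox6a2 was 12.3 ± 0.725% of Cox6a with addback and 26.7 ± 1.73% with empty vector (SD, n = 3 each). Cox7a1 was 2.50 ± 0.546% of Cox7a with addback and 0.480 ± 0.188% with empty vector (SD, n = 3 each), and Cox7b2 was 3.55 ± 0.546% of Cox7b with addback and 0.244 ± 0.423% with empty vector. The main isoforms therefore carried most of the transcripts of each pair in every library.

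**Figure D3:**
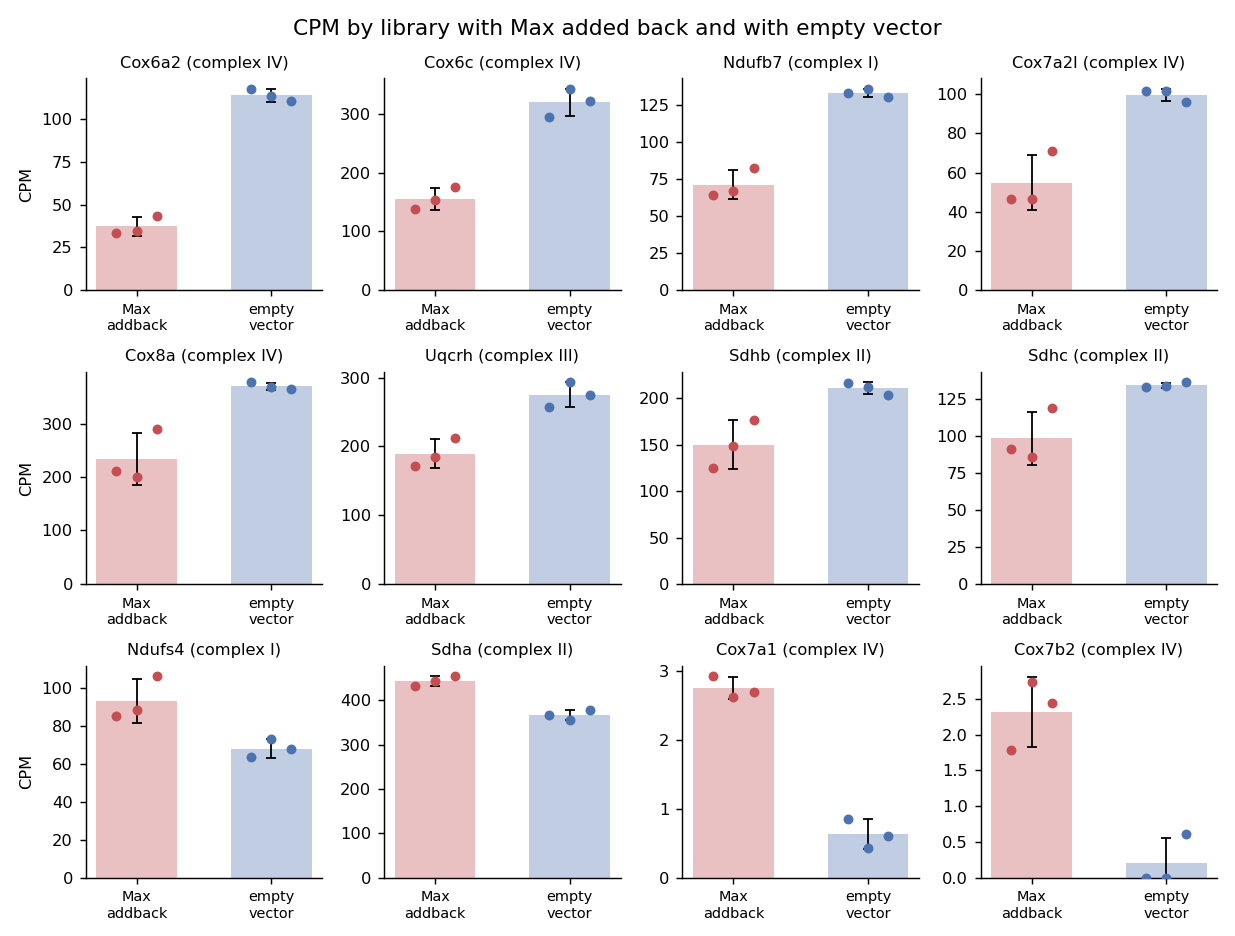
CPM of 12 genes in each library of the addback experiment, Max addback left of empty vector; points are libraries in replicate order, bars are means and error bars are SD (n = 3). The 8 genes of the upper rows lie lower in every addback library than in every empty vector library, and the 4 genes of the bottom row (Ndufs4, Sdha, Cox7a1, Cox7b2) lie higher.

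In complex I, 7 of 30 accessory and 1 of 7 core subunits fell, beside 25.5% of all listed genes called lower. Ndufb7, an accessory subunit of the membrane arm (chr8:83566671-83571626, plus strand), had 63.9, 67.0 and 82.2 CPM with addback, against 133, 136 and 131 CPM with empty vector, with no overlap (log2 change -0.91, SE 0.10, limma adjusted p 3.71e-05). Ndufa10, an accessory subunit, had 116, 118 and 148 CPM with addback, against 196, 191 and 173 CPM with empty vector, and fell by 0.56 (SE 0.10, limma adjusted p 0.0014). Ndufa13, also known as GRIM-19, had 56.8, 70 and 87.5 CPM with addback, against 100, 100 and 97.4 CPM with empty vector, and fell by 0.49 (SE 0.13, limma adjusted p 0.011). The other accessory subunits that fell were Ndufb10, Ndufb6, Ndufb5 and Ndufa9, with log2 changes of -0.44 to -0.36. Ndufs4, an accessory subunit whose loss causes Leigh syndrome in humans, was the complex I gene that rose. It had 85.3, 88.3 and 106 CPM with addback, against 63.5, 73.3 and 67.8 CPM with empty vector (log2 change 0.44, SE 0.10, limma adjusted p 0.0043), with no overlap.

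Among the assembly factors, which help to build complex I and are not part of the finished enzyme, Ndufaf4 had 55.2, 56.8 and 57.8 CPM with addback, against 77.9, 85.2 and 74.7 CPM with empty vector. It fell by 0.48 (SE 0.08, limma adjusted p 0.00071), and its 3 addback libraries lay close together. Ndufaf6 had 6.61, 11 and 9.51 CPM with addback, against 13.7, 12.9 and 13.1 CPM with empty vector, and Ndufaf7 had 28.7, 29.6 and 34.2 CPM with addback, against 36.0, 37.8 and 42.0 CPM with empty vector. Neither group pair overlapped, and both genes passed with limma adjusted p of 0.023 and 0.027, but each lost the call when any of several single libraries was left out.

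The 4 genes of complex II, which also works in the citric acid cycle, did not move together. Sdha, the flavoprotein subunit, had 432, 444 and 454 CPM with addback, against 367, 356 and 378 CPM with empty vector, and rose by 0.27 (SE 0.07, limma adjusted p 0.010). Sdhb, the iron-sulphur subunit, had 125, 149 and 177 CPM with addback, against 217, 212 and 204 CPM with empty vector, and fell by 0.50 (SE 0.11, limma adjusted p 0.0045). In Sdhc, a membrane anchor, 91.1, 85.9 and 119 CPM with addback stood against 133, 134 and 136 CPM with empty vector, and the fall was 0.46 (SE 0.11, limma adjusted p 0.0073). None of these 3 pairs of groups overlapped. Sdhd, the other anchor, had 108, 117 and 134 CPM with addback, against 115, 135 and 118 CPM with empty vector, with overlap (log2 change -0.04, SE 0.10, limma adjusted p 0.75). Sdha lost its call without empty vector replicate 2, with an adjusted p of 0.057.

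In complex III, Uqcrh, the hinge protein near cytochrome c1, was the gene that passed. It had 172, 184 and 212 CPM with addback, against 257, 293 and 275 CPM with empty vector, with no overlap (log2 change -0.54, SE 0.09, limma adjusted p 0.0009). Uqcrc2, a core protein, had a log2 change of -0.15 (limma adjusted p 0.10), and Uqcr10 one of 0.06 (0.64). In complex V the small membrane subunits Atp5mpl and Atp5j2 fell by 0.38 and 0.30 (limma adjusted p 0.023 and 0.044), and Atp5e, the epsilon subunit of the F1 part, rose by 0.37 (limma adjusted p 0.041). Atp5e had 199, 210 and 299 CPM with addback, against 182, 178 and 176 CPM with empty vector, so addback replicate 3 was far above the others. Without that library Atp5e was still called, with a log2 change of 0.19. Atp5b had 1418, 1465 and 1672 CPM with addback, against 1844, 1778 and 1773 CPM with empty vector, with no overlap (log2 change -0.25, limma adjusted p 0.073; -0.32 and 3.45e-05 without addback replicate 3). The genes of the c ring, Atp5g1, Atp5g2 and Atp5g3, which encode the same mature protein, did not pass, with log2 changes of -0.17, -0.02 and -0.04.

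By the library names, the line that was transduced was also sequenced without a vector, as RPM replicate 2, in the other table. The Y-linked Ddx3y stood at 125 CPM there, against 0 CPM in all 3 addback libraries and 157 to 177 CPM with empty vector, so whether the addback cells are the same line was not settled by these values. The tables were normalised separately and there is 1 such library, so its levels were set beside the others without a test. Cox6a2 stood at 57.6 CPM in the untransduced line, between 37.3 CPM with addback and 114 CPM with empty vector on average. Cox6c stood at 181 CPM there, against means of 155 CPM with addback and 319 CPM with empty vector. Of the 21 genes lower with addback, 20 were below the empty vector mean in the untransduced line as well, and 16 were nearer to the addback mean. These 21 were chosen for lying above addback in empty vector, and of all 89 genes listed in both, 56 were below the empty vector mean and 58 were nearer to the addback mean. Of the 4 genes higher with addback that both tables list, 2 were nearer to the addback mean (Cox7a1 and Sdha) and 2 nearer to empty vector (Ndufs4 and Atp5e).

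Comparing RPM with RP lines asks how tumour lines labelled Max mutant differ from those labelled Rb/p53 mutant only, and the Max transcript was higher in all 4 lines labelled Max mutant. No respiratory chain gene passed limma's adjusted p of 0.05 among the 90, and 0.334% of the 14360 listed genes did. At an unadjusted p under 0.05 there were 7 of 90, against 15.9% of listed genes; edgeR called 0 of the 90 and 0.0209% of listed genes, and DESeq2 called 2 of the 90 higher (Ndufs8 and Atp5g1) and 4.58% of listed genes. The median change was 0.07, against -0.01 for all listed genes, with 64 genes above 0 and 26 below. In 5 of the 90 the groups did not overlap, all higher in RPM lines. Of all listed genes, 9.37% did not overlap in either direction, and 4.97% did not overlap and were higher. The smallest two-sided p an exact permutation test of 4 against 4 lines allows is 0.0286, and these 5 genes had it before adjustment over genes. That p follows from the absence of overlap by which they were picked and is no further evidence.

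The genes with the smallest unadjusted p were in complex I, its assembly factors and complex V. Ndufs8, a core subunit that carries iron-sulphur clusters (chr19:3908863-3912774, minus strand), had 78.4, 89.6, 71.5 and 78.4 CPM in RPM lines, against 54.6, 61.4, 59.6 and 57.1 CPM in RP lines. The groups did not overlap (log2 difference 0.44, SE 0.11, limma adjusted p 0.16). The log2 difference of all 7 core subunits lay above 0, from 0.004 in Ndufv2 to 0.44 in Ndufs8, with a median of 0.24. Of the 30 accessory subunits 24 lay above 0, with a median of 0.07, and core against accessory was not tested. Ndufv1, the NADH-binding subunit whose promoter holds an E-box, had 272.1, 192.1, 176.5 and 211.8 CPM in RPM lines, against 162.5, 167.5, 175.6 and 166.6 CPM in RP lines, narrowly without overlap (log2 difference 0.32, limma adjusted p 0.31). Among accessory subunits, Ndufb2 and Ndufs6 had log2 differences of 0.50 and 0.47, with limma adjusted p of 0.25 for both. Ndufaf4 had 67.9, 70.2, 68.6 and 63.4 CPM in RPM lines, against 46.8, 51.2, 50.6 and 60.6 CPM in RP lines, without overlap (log2 difference 0.37, SE 0.12, limma adjusted p 0.23). Ndufaf8, another assembly factor, had a log2 difference of 0.26 (limma adjusted p 0.56).

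Atp5g1, a c-ring gene with an E-box 44 bases before its start, had 27.2, 32.9, 25.8 and 26.0 CPM in RPM lines, against 14.9, 17.6, 21.6 and 18.3 CPM in RP lines. Every RPM line was above every RP line (log2 difference 0.61, SE 0.18, limma adjusted p 0.20). The promoter windows of Ndufs8, Ndufaf4 and Ndufb2, whose groups did not overlap either, held no E-box. Atp5g3 made up most of the c-ring transcripts in each line, and Atp5g1 was 3.87 ± 0.655% of their summed RPKM in RPM lines and 2.59 ± 0.307% in RP lines (SD, n = 4 each). In complex II, Sdha had 395, 408, 286 and 434 CPM in RPM lines and 240, 274, 242 and 338 CPM in RP lines, overlapping in RPM replicate 3 (log2 difference 0.47, limma adjusted p 0.26). Sdhb, Sdhc and Sdhd differed by -0.10, 0.05 and 0.20, and overlapped. Complex III had the lowest median, 0.005, and its core proteins Uqcrc2 and Uqcrc1 had log2 differences of -0.29 and -0.16, neither past the threshold. Uqcrfs1, the Rieske iron-sulphur protein of complex III, differed by 0.27 (limma adjusted p 0.56). Atp5h of the ATP synthase stalk differed by 0.31 (limma adjusted p 0.33), and Cox7c and Cox4i1 of complex IV by 0.42 and 0.33, neither past the threshold. Of the other members with the highest level, on the X chromosome or in isoform families, Ndufa1, Cox8a, Cox7a2l, Ndufb11 and Atp5g3 had log2 differences of 0.41, 0.11, 0.14, 0.05 and 0.05. Atp5g2, Cox7b, Uqcr10, Ndufa4, Cox6b1 and Atp5b had log2 differences of -0.36, -0.28, -0.22, -0.09, -0.08 and -0.05.

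The complex IV isoform genes Cox6a2, Cox7a1 and Cox6b2 varied several-fold between lines of the same genotype, and the genotypes overlapped. Cox6a2 had 5.49, 57.6, 49.0 and 43.2 CPM in RPM lines, against 6.98, 6.61, 34.9 and 45.6 CPM in RP lines, so 1 RPM and 2 RP lines were low and the other five were high (log2 difference 0.76, SE 0.86, limma adjusted p 0.69). As a share of Cox6a it was 2.22 to 17.5% in RPM lines and 2.63 to 18.3% in RP lines. Cox7a1 had 10.6, 2.87, 1.07 and 1.49 CPM in RPM lines and 0.481, 3.13, 6.46 and 5.65 CPM in RP lines, which is 1.26 to 11.6% of Cox7a in RPM lines and 0.693 to 8.17% in RP lines. Cox6b2, a sperm isoform in the mouse, had 2.81, 1.12, 1.66 and 11.9 CPM in RPM lines and 0.481, 3.01, 1.22 and 1.06 CPM in RP lines. The common isoforms were steadier: Cox6a1 lay between 226 and 280 CPM in RPM lines and between 192 and 253 CPM in RP lines, and Cox7a2 between 142 and 184 CPM in RPM lines and between 122 and 180 CPM in RP lines. Ndufs5, an accessory subunit, stood at 1.18 CPM in RPM replicate 3, while the other RPM lines held 11 to 21.2 CPM, and RP lines 7.22 to 11 CPM.

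**Figure D4:**
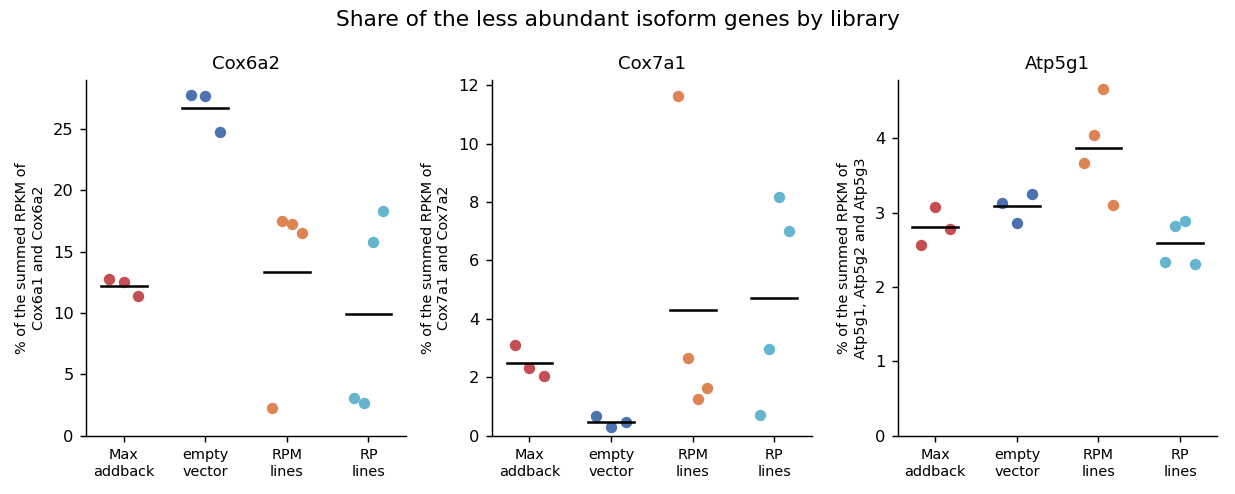
Share of Cox6a2, Cox7a1 and Atp5g1 in the summed RPKM of their isoform genes (vertical axes, starting at 0) in each of the 14 libraries; points are libraries and bars are group means. Cox6a2 is near 12% with addback and near 27% with empty vector, and splits into low and high lines in both genotypes.

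The comparisons share no library, although the transduced line is also 1 of the 4 RPM lines. A gene lower with Max addback and higher in lines labelled Max mutant would lie below 0 with addback and above 0 in RPM lines. Of the 89 genes in both tables, 47 lay there, 7 lay at the opposite corner, 16 were above 0 in both and 19 were below 0 in both. Of all 13528 genes in both tables, 3827 and 3770 lay in those opposite corners. Without addback replicate 3 these were 54 and 4 of the 89, and 3798 and 3859 of all genes. Of the 21 genes lower with addback, 16 lay above 0 in RPM lines, with Cox6a2 and Ndufaf4 among them, though none of the 21 passed in the lines. Of the 90 genes in each table, 66 lay below 0 with addback and 64 lay above 0 in RPM lines. The corner counts therefore do not by themselves show opposite movement of the same genes. Across the 89 genes, which are not independent replicates, the changes had a Pearson r of -0.14 and a Spearman rho of -0.02 (-0.17 and -0.06 without addback replicate 3).

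**Figure D5:**
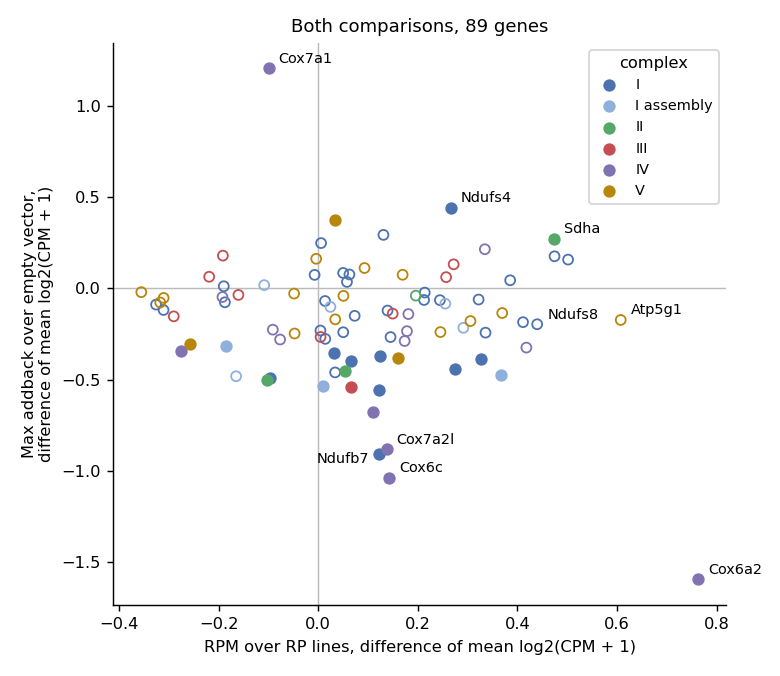
Change of each of the 89 genes in RPM lines over RP lines (horizontal) and with Max addback over empty vector (vertical), both as differences of mean log2(CPM + 1) and coloured by complex; filled points passed with addback. Most filled points lie below 0 on the vertical axis and within 0.4 of 0 on the horizontal one, and Cox6a2 lies at the lower right.

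Other genes of the pathway were described from lists of known function. Beside their counts with addback stand 25.5% of all listed genes called lower and 27.7% called higher. Of 13 mitochondrially encoded subunits 7 were listed, and 4 of these fell with addback (mt-Nd1, mt-Nd2, mt-Co1 and mt-Cytb), with all 7 below 0 and a median of -0.58. mt-Nd1, a complex I subunit of the membrane arm, had 3031, 2953 and 2942 CPM with addback, against 5066, 6237 and 5658 CPM with empty vector (log2 change -0.92), and mt-Nd2 fell by 0.79. For these 2 genes addback replicate 3 lay close to the other addback libraries. It was the highest of the 3 for mt-Nd4, at 1990 CPM against 1664 and 1686 CPM, and for mt-Nd6, and the lowest for mt-Nd5, at 2915 CPM against 3522 and 3677 CPM. Without it 6 of the 7 fell, and 64.3% of all listed genes were called. mt-Nd6 had a log2 change of -0.06 and limma adjusted p of 0.72. In the lines the 7 were all above 0, from 0.18 to 0.47, and limma called none of them at either the adjusted or the unadjusted 0.05.

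Of the nuclear regulators of mitochondrial biogenesis and mitochondrial DNA expression, 8 of 15 listed genes fell with addback, and all 15 lay below 0. Without addback replicate 3, 11 fell and 1 lay above 0. Of all listed genes, 25.5% were called lower and 27.7% higher with addback, and 64.3% were called without replicate 3. Pprc1, a PGC-1 related coactivator, had 47.4, 40.6 and 39.3 CPM with addback, against 114, 121 and 113 CPM with empty vector (log2 change -1.43). Ppargc1b, another coactivator of that family, fell by 0.74. Of 43 listed assembly factors outside the Ndufaf symbols 9 fell and 3 rose with addback; the leading ones were Lrpprc, which stabilises mitochondrial mRNAs, with a fall of 0.76, and Ecsit, with a fall of 0.58. Among 17 listed genes for coenzyme Q, cytochrome c and the ATP synthase inhibitor, 4 rose and 4 fell, with Coq4 up by 0.71 and Coq8a down (log2 change -0.63). Of 13 citric acid cycle genes 5 fell and 3 of 13 lay above 0; the leading genes were Dld and Idh3b, with log2 changes of -0.53 and -0.39. Without addback replicate 3, 17 of these assembly factors fell and 2 rose, 5 of the coenzyme Q and cytochrome c genes fell and 4 rose, and 9 citric acid cycle genes fell. In the lines limma called none of the genes of these lists, with 2 biogenesis genes, 6 assembly factors, 4 of the coenzyme Q and cytochrome c genes and 2 citric acid cycle genes at an unadjusted p under 0.05. These are 14 of 88 listed genes, or 15.9%, the same share as among all listed genes.

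Markers of other cell states moved with addback too, beside 27.7% of all listed genes called higher and 25.5% called lower. Of 11 C cell and neuroendocrine markers 10 rose, led by Calcb and Chgb with log2 changes of 3.43 and 2.26. The other, the calcitonin gene Calca, averaged 2560 CPM with addback and 2788 CPM with empty vector (log2 change -0.13, limma adjusted p 0.41). Calcb averaged 38.6 CPM with addback and 2.68 CPM with empty vector. All 4 epithelial markers rose, with sums of 388 to 458 CPM with addback, against 54.1 to 60.7 CPM with empty vector, and both listed fibroblast markers, Dcn and Col1a1, fell, with sums of 5.34 to 7.10 CPM with addback against 28.9 to 39.2 CPM with empty vector. Of the follicular markers, Pax8 fell at levels of 0.127 to 0.374 CPM with addback, against 0.858 to 1.85 CPM with empty vector. The 1 listed endothelial and the 1 listed immune marker did not pass, at sums of at most 3.73 CPM in any addback library. In the lines limma called no marker, with 4 at an unadjusted p under 0.05. The part of these differences in the respiratory chain results was not tested.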

How the data were processed

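Per the submitters' processing notes, the authors used bcl2fastq 1.8.4, TopHat2 2.1.0, HTSeq 0.6.1 and edgeR with the mm10 build. Both deposited tables, each normalised by the authors on its own, hold TMM-scaled CPM as a signal per gene and the RPKM of each library, per the file headers. The authors' comparisons stand beside them as log2 fold changes, p-values with FDR, and a score that marks a gene as called higher, lower or not, per the file headers. CPM values were whole multiples of 1 read within 0.01 read for 100% of values, so reads were recovered from them. Coordinates came from GENCODE vM21 (GRCm38, which is mm10).

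Each comparison was fitted on its own table with limma 3.58.1 (R 4.3.3), trend on log2(CPM + 1), pseudocount 1, all listed genes, two-sided, Benjamini-Hochberg adjusted p under 0.05. Fold changes on that scale understate the changes of low genes. Single values were also tested by exact permutation, for which 3 against 3 libraries cannot go below p = 0.1. Alternatives were a pseudocount of 0.25, a filter at CPM 1, other scalings, edgeR 4.0.16 and DESeq2 1.42.0 on recovered reads, the replicate block and leaving out each library. The fits were tested on simulated counts with a set dispersion of 0.1 for the lines and 0.01 for addback. For the lines 27% of 2-fold and 94% of 4-fold changes were recovered, with 8 false calls. For addback 89% and 93% were recovered, with 13 false calls. Each simulation changed 200 genes, while 53.2% of listed genes were called with addback. Changes under 2-fold, and shifts shared by many genes of 1 library, were not simulated, so these figures do not cover them. Depth limits precision by counting error, which the values of 3 reads bound. Close copies were found with blastn 2.17.0+.

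Genes named are, per complex, the 4 largest called changes (or, with fewer than 2 called, the 2 smallest p), all isoform genes, complex II, X-linked genes, the highest RPKM, and the 2 largest called changes of each list; others named were chosen after their values were seen. Values of 1 gene are not reported here, though it stays in the counts. The members and lists were chosen with earlier results of these data known. The library name of RPM replicate 1 holds an animal number shared with tumours labelled as Rb/p53 mutant; its own label was kept. No library was left out.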

Additional observations from a re-analysis of the deposited data

Results flagged for a closer look

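Of 72 groups of 4 lines examined for a library far from the others, 4 had one, and chance alone gives about 1 in 20. Cox6b2, the sperm isoform of subunit VIb, stood at 11.9 CPM in RPM replicate 4, while the other RPM lines held 1.12 to 2.81 CPM. Cox4i1 stood at 327 CPM in RPM replicate 2, against 246 to 259 CPM in the others, and that is the line used for the addback experiment. Ndufaf8 stood at 13.9 CPM in RPM replicate 1, against 11 to 11.3 CPM. The mean log2(CPM + 1) of complex II was 7.22 in RPM replicate 3, against 7.61 to 7.64 in the other RPM lines. Groups of 3 were not examined in this way.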

How the results depend on the processing

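With addback, the number of genes lower was 21 and the number higher 5, and leaving out 1 library gave 13 to 54 lower and 3 to 7 higher. The 54 came without addback replicate 3; 13 lower came without empty vector replicate 2 (with 3 higher) and without empty vector replicate 3. With 1 library left out, the median change with addback lay between -0.24 and -0.055 for all members, -0.23 and -0.021 for complex I, -0.39 and -0.19 for its assembly factors, -0.36 and -0.17 for complex II, -0.15 and 0.023 for complex III, -0.41 and -0.18 for complex IV and -0.16 and -0.034 for complex V. In the lines DESeq2 called 2 genes higher where limma called 0, and it called 4.58% of all listed genes against 0.334%; with 1 line left out limma called 0 to 261 of all listed genes and none of the 90. Scaled by total reads, 14 genes were lower with addback where 21 were, complex I had 5 lower where it had 8, and complex V 0 where it had 2; the medians of complexes III and V turned to 0.044 and 0.0027. Replicate numbers are not known to pair libraries: same-numbered deviations correlated by 0.01 to 0.40 in the lines and 0.01 to 0.08 with addback, and with the replicate block 24 genes were lower and 6 higher with addback, and none in the lines.

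Of the genes named, Cox7b, Atp5j2, Atp5mpl, Ndufaf7, Ndufaf6, Atp5e and Sdha lost the call under at least 1 setting (35 losses in all), and the cause was not tested. Genes without a call in the full comparison that turned sign spanned these log2 changes with 1 library left out: in the lines, Atp5b -0.14 to 0.071, Atp5g3 -0.022 to 0.19, Cox6b1 -0.21 to 0.031, Cox7a1 -0.62 to 0.21, Cox7a2l -0.18 to 0.43, Ndufa4 -0.19 to 0.070, Ndufb11 -0.084 to 0.20, Sdhb -0.21 to 0.030 and Sdhc -0.0067 to 0.12; with addback, Atp5g2 -0.13 to 0.11, Atp5g3 -0.16 to 0.032, Sdhd -0.12 to 0.031 and Uqcr10 -0.065 to 0.13. Cox7a1 in the lines was at 0.024 by edgeR and 0.020 by DESeq2. Scaled by total reads, Sdhd, Atp5g3 and Atp5g2 with addback were at 0.040, 0.039 and 0.039. A count of 3 reads, taken as the floor, was worth 0.353 to 0.458 CPM.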
